A study of Mus musculus with 13 samples.

Results

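The inflammation-linked microRNAs (miRNAs) miR-146a-5p, miR-155-5p, miR-21-5p, miR-132-3p and miR-125a-5p were examined in plasma exosomes of septic and sham-operated mice. They were picked by name for their place in Toll-like receptor and NF-kB responses, with no threshold on a value, and are 5 of the 68 miRNAs on the panel. All mice were male wild-type (WT) C57BL/6J, and blood was studied 24 hours after surgery. The 8 CLP mice had cecal ligation and puncture, an operation that spills gut bacteria into the abdomen from a tied and needled cecum, and the 5 sham mice are labelled as controls. No transgene, drug or further allele is named for either group. Exosomes, small vesicles released by cells, were pelleted from plasma by ultracentrifugation, and their RNA was read as fluorescence of FirePlex hydrogel particles, which carry a capture probe for each miRNA.

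Toll-like receptors sense microbial products and signal through MyD88, IRAK kinases and TRAF6 to NF-kB, which switches on inflammatory genes. The same signal induces miRNAs that feed back on it. miR-146a represses TRAF6 and IRAK1 and so damps the pathway. miR-155, cut from the Mir155hg (BIC) transcript, is induced in activated macrophages and lymphocytes and represses the inhibitors SOCS1 and SHIP1. miR-21, abundant in many cell types, represses PDCD4. miR-132 is induced through CREB and represses the coactivator p300 and acetylcholinesterase. miR-125a belongs to the miR-125 family, whose targets include TNFAIP3 (A20), an inhibitor of NF-kB.

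The mature mouse sequences are shown because the 5 members share function in inflammation but no seed, the stretch from base 2 to base 8 that selects targets. All 5 matched a RefSeq entry on build GRCm38.p6, miR-21-5p under its mouse name miR-21a-5p. Capitals mark the seed, and each sequence reads 5′ to 3′.
miR-146a-5p: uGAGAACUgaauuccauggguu
miR-155-5p: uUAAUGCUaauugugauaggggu
miR-21a-5p: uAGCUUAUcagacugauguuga
miR-132-3p: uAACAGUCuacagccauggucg
miR-125a-5p: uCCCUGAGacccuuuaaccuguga

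miR-146a-5p lies at chr11:43374435-43374456 on the minus strand, outside the span of any other gene in the RefSeq table. miR-155-5p lies at chr16:84714143-84714165 on the plus strand, within the span of the noncoding gene Mir155hg. miR-21a-5p lies at chr11:86584120-86584141 on the minus strand, within the span of the protein-coding gene Vmp1. miR-132-3p lies at chr11:75173723-75173744 on the plus strand, and the hairpin of miR-212 ends 203 bases before its own begins. miR-125a-5p lies at chr17:17830817-17830840 on the plus strand, within the span of Spaca6 and 367 bases after the hairpin of let-7e. That table gives gene spans only, so exons and introns were not told apart.

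No other probe on the panel with a matched mouse sequence had a seed of any of the 5 members. Other mouse miRNAs do share a seed with 4 of them: miR-146b-5p with miR-146a-5p, miR-21c with miR-21a-5p, miR-212-3p with miR-132-3p, and miR-125b-5p, miR-351-5p, miR-6367 and miR-6394 with miR-125a-5p. None was found for miR-155-5p. The sequences of 3 of these relatives are shown for comparison along their length.
miR-146b-5p: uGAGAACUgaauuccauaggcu
miR-212-3p: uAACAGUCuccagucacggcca
miR-125b-5p: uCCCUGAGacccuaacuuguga
Counted from 1 at the 5′ end, miR-146b-5p differs from miR-146a-5p at 2 of 22 positions, the first of them position 18. miR-212-3p differs from miR-132-3p at 5 of 22 positions and miR-125b-5p from miR-125a-5p at 7 of the 22 positions both have. The count allows no gap. miR-125a-5p has 24 bases and miR-125b-5p 22, and they first differ at position 14. Bases that are only shifted by the difference in length therefore count among the 7, which overstates how far this pair differs. Capture of these relatives by the probes was not tested, since the probe sequences were not used here.

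The panel was dimmer in sham mice, whose summed raw signal spanned 10598 to 45121 units against 33043 to 74685 for CLP, and sham 1 and sham 4 had the lowest levels. The columns of CLP 6 and CLP 7 in the authors' second table match the raw columns of CLP 7 and CLP 6, so values of those mice follow the raw table's labels and which mouse is which is unsettled. Both are CLP, and group values do not depend on it. The labelled source, plasma exosomes, was checked only against blood-cell miRNAs, and the erythroid miR-451a and the myeloid miR-223-3p were above 0 in every mouse. All 5 members were above 0 in all 13 mice. Precision is limited by the number of mice.

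The first comparison asked how much signal of each member was recovered per mouse, with no scaling between mice. All 5 members had a higher mean raw signal in CLP and passed limma's moderated test on log2 signal (Benjamini-Hochberg adjusted p under 0.05), but so did 90.9% of the 66 miRNAs tested, so the count says nothing particular to them. Their median change was 2.27 log2 units, against 1.87 over all miRNAs tested. More vesicles, more RNA per vesicle and better recovery cannot be told apart in these samples. The groups overlapped for every member, whereas 15.2% of the miRNAs tested had all CLP mice above all sham mice.

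miR-146a-5p, the feedback inhibitor, had raw signals of 33.8, 101.3, 227, 46.8 and 437 units in sham 1 to 5. In the CLP mice it ran from 386 through a median of 775 to 1579 units. Only CLP 8 lay below sham 5, and the other 7 CLP mice lay above every sham mouse. The signal was 7.02-fold higher in CLP (log2 2.81, SE 0.54, limma adjusted p = 0.000143), and this was the third largest rise on the panel.

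miR-125a-5p of the A20-targeting family was one of the dimmer members, at 3.33, 4.71, 13.3, 2.50 and 19.4 units in the sham mice, where the floor on low values was 2.10 units. Its CLP signals ran from 13.4 through a median of 41.7 to 73.4 units, again with 7 of 8 mice above every sham mouse. It was 5.96-fold higher in CLP (log2 2.58, SE 0.51, limma adjusted p = 0.000159).

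miR-132-3p, the CREB-induced member, was spread most widely among sham mice, at 9.12, 10.7, 51.2, 5.26 and 104.1 units. Sham 3 and sham 5 stood far above the other sham mice, within the CLP range of 36.0 to 182 units (median 102.4). The change was 4.82-fold (log2 2.27, SE 0.59, limma adjusted p = 0.00153). Without sham 1 and sham 4 it did not pass (1.28, limma adjusted p = 0.0774).

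miR-155-5p, the macrophage-activation member, lay at 2.10, 6.65, 5.20, 5.37 and 15.8 units in the sham mice. Its sham 1 value sits next to the floor. CLP signals ran from 12.3 through a median of 27.6 to 45.5 units, and CLP 7 and CLP 8 lay below sham 5. The change was 4.63-fold (log2 2.21, SE 0.48, limma adjusted p = 0.000361).

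miR-21-5p, abundant in many cells, had signals of 348, 718, 850.1, 269 and 1760.1 units in the sham mice. In CLP mice it ran from 732 through a median of 1407 to 2616 units, and only 3 of 8 lay above every sham mouse. It had the smallest rise of the 5, at 2.28-fold (log2 1.19, SE 0.48, limma adjusted p = 0.0224), 58th of 66 from the top. This call needed the dim sham mice: without sham 1 the change was 0.97 (limma adjusted p = 0.0698), without sham 4 it was 0.88 (0.0939) and without both 0.49 (0.330).

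**Figure D1:**
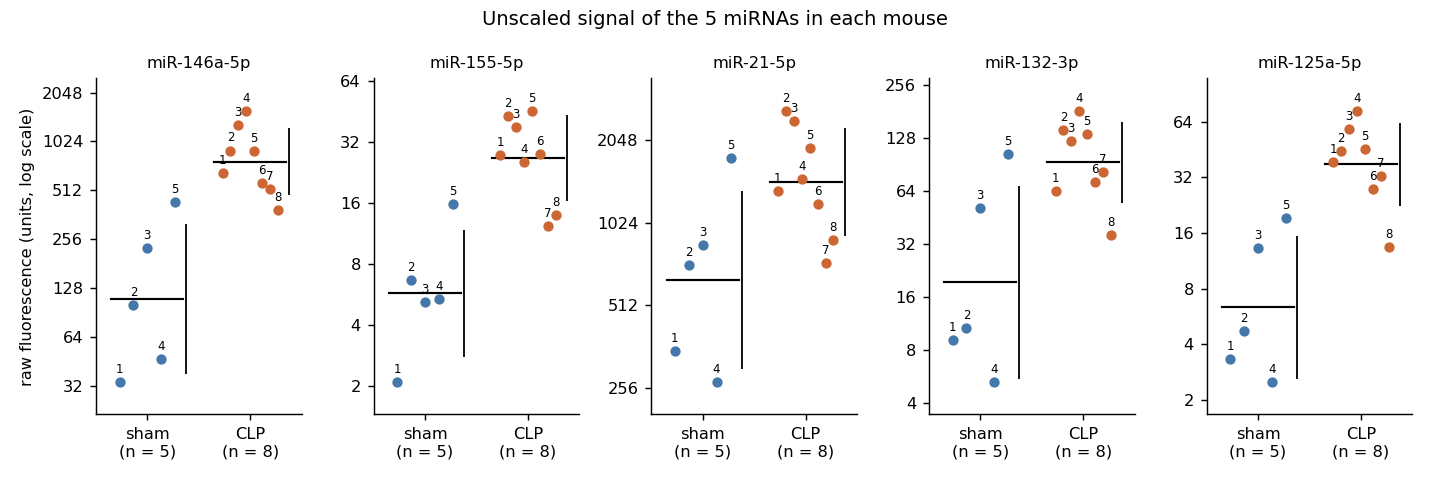
Raw fluorescence of each member (log scale, units) in each of 5 sham and 8 CLP mice, numbered by mouse; horizontal lines are means and vertical bars 1 SD, both of log2 signal. The groups overlap in all 5 panels, and sham 5 is the highest sham mouse in each.

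The second comparison asked whether the members changed relative to the rest of the panel. The signals of a mouse were divided by its level, which is the geometric mean over the 60 miRNAs detected in every mouse, and brought back to the average level, which gives scaled units. Relative to the panel, miR-146a-5p and miR-125a-5p rose, miR-21-5p fell, and miR-155-5p and miR-132-3p did not pass. Thus 2 of 5 members were higher, where 10.8% of the 65 miRNAs tested were called higher, and 1 of 5 was lower, where 20% were called lower. The median change was 0.33 log2 units over the members and 0.10 over all miRNAs tested. All 5 members overlapped between the groups on this scale, whereas 3.08% of miRNAs had every CLP mouse above every sham mouse and 4.62% every CLP mouse below.

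miR-146a-5p stood at 203, 286, 495, 258 and 498 scaled units in sham 1 to 5 and ran from 403 through a median of 569.8 to 894 in CLP mice. Here the exception was CLP 6, below sham 3 and sham 5, and 7 of 8 CLP mice lay above every sham mouse. The relative rise was 1.83-fold (log2 0.87, SE 0.25, limma adjusted p = 0.0192), the fifth largest on the panel. It did not pass without sham 1 (0.70, limma adjusted p = 0.0521) or without sham 2 (0.83, 0.0506), nor without sham 1 and sham 4 together (0.53, 0.146). It also did not pass with quantile normalization (0.82, 0.0626).

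miR-125a-5p stood at 19.97, 13.3, 29.0, 13.8 and 22.1 scaled units in the sham mice. In CLP it ran from 19.6 through a median of 29.2 to 41.5, with 4 of 8 mice above every sham mouse and 8 of 8 above the sham mean. The relative rise of 1.56-fold (log2 0.64, SE 0.23, limma adjusted p = 0.0465) was close to the threshold: it passed in 4 of the 13 fits that left out 1 mouse, ended without sham 1, 2 or 4 or without CLP 1, 2, 3, 4, 5 or 7, and was 0.31 with quantile normalization (limma adjusted p = 0.0838) and 0.69 with median scaling (0.108).

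miR-21-5p moved the other way. Sham mice lay close together, at 2085, 2023, 1854, 1482 and 2008 scaled units, with an SD of 0.20 on the log2 scale against a panel median of 0.48. CLP mice ran from 705 through a median of 1189.9 to 1586, with an SD of 0.44 against a panel median of 0.36. The CLP range thus began far below the lowest sham mouse, sham 4, and 6 of 8 CLP mice lay below every sham mouse. The relative level was 1.68-fold lower in CLP (log2 -0.75, SE 0.22, limma adjusted p = 0.0192). Leaving out sham 2 gave -0.72 (limma adjusted p = 0.0506), and 3 of the other scalings also ended the call: the 75th percentile (-0.53, 0.0811), the authors' second table (-0.54, 0.0733) and quantile normalization (-0.54, 0.102). Its raw signal was higher in CLP, so this is a fall relative to the panel and not a loss of signal.

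For miR-155-5p the relative change was 0.27 (SE 0.26, limma adjusted p = 0.454), and the groups overlapped throughout. Sham 4 held the highest scaled value of all 13 mice, 29.6 units, against 11.9 to 26.9 in CLP. Among CLP mice CLP 4 and CLP 7 were low, at 14.4 and 11.9 scaled units, and the other 6 lay between 19.6 and 26.9. For miR-132-3p the relative change was 0.33 (SE 0.34, limma adjusted p = 0.486). Sham 3 and sham 5 were at 112 and 119 scaled units, above all 8 CLP mice, while sham 2 and sham 4 were at 30.0 and 29.0, below all of them. The sham SD of miR-132-3p, 0.98 on the log2 scale, was the largest of the members, and its CLP SD of 0.32 the smallest.

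**Figure D2:**
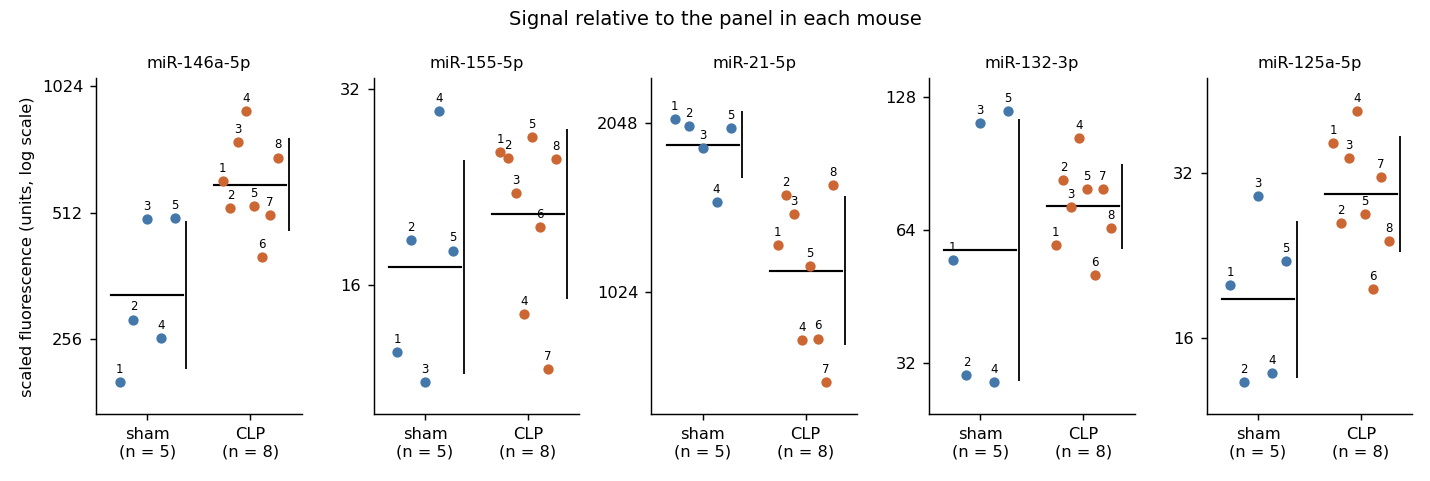
Fluorescence scaled to the geometric mean of the panel (log scale, units) for each member in each numbered mouse; horizontal lines are means and vertical bars 1 SD, both of log2 signal. miR-146a-5p lies higher and miR-21-5p lower in CLP, and the sham mice of miR-132-3p lie on both sides of the CLP mice.

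Scalings that apply 1 factor per mouse shifted all 5 members alike, whereas quantile normalization raised the value of miR-21-5p and lowered those of the other members by unequal amounts. miR-146a-5p ranged from 0.82 with quantile normalization to 1.09 with the 75th percentile and miR-21-5p from -0.75 to -0.53. miR-125a-5p had the widest range of the 5, from 0.31 with quantile normalization to 0.86 with the 75th percentile. miR-155-5p ranged from 0.02 to 0.49 and miR-132-3p from 0.11 to 0.55, and neither passed under any of the 5 scalings. No member changed sign among these scalings. miR-21-5p is the only member whose relative change opposes its raw change.

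**Figure D3:**
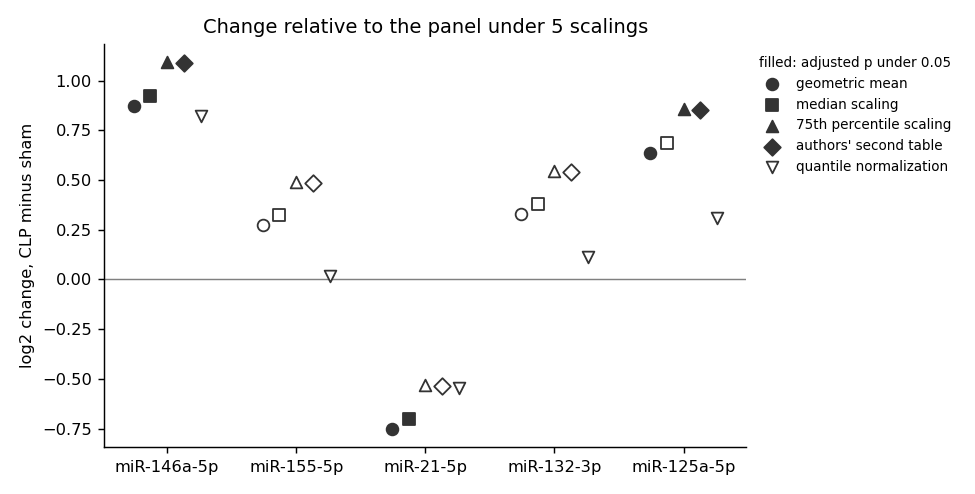
Log2 change of each member, CLP minus sham, after each of 5 ways to scale the mice; filled symbols have a limma adjusted p under 0.05. miR-146a-5p is filled under 4 scalings, miR-125a-5p under 3, miR-21-5p under 2, and miR-155-5p and miR-132-3p under none.

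The third comparison took ratios of 2 members within a mouse, which no factor per mouse can alter. A ratio of 2 probes is not a ratio of molecules, because probes differ in efficiency, so only its difference between mice is read. All 10 pairs of members and the ratio of miR-125a-5p to let-7e-5p were tested by an exact two-sided permutation test over all 1287 splits of the mice, whose smallest p is 0.000777. Of these 11 ratios, 4 had p under 0.05 before adjustment (36.4%), where 41.5% of the 1770 ratios among the 60 miRNAs above 0 in all mice did. After Benjamini-Hochberg adjustment over the 1770, 3 of the 11 passed (27.3%), against 30.5%. The groups did not overlap for 1 of the 11 (9.09%), against 10.8% of the 1770. By these shares the members' ratios were not separated more often than other ratios on the panel.

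The ratio of miR-146a-5p to miR-21-5p, a feedback inhibitor over an abundant miRNA, was the one with no overlap. It was 0.0973, 0.141, 0.267, 0.174 and 0.248 in sham 1 to 5 and ran from 0.344 in CLP 2 through a median of 0.484 to 1.07 in CLP 4. Every CLP mouse lay above every sham mouse. The mean ratio was 3.08-fold higher in CLP (log2 difference 1.62), and the log2 ratio averaged -2.53 ± 0.60 (SD, n = 5) among sham mice and -0.90 ± 0.50 (SD, n = 8) among CLP mice. The exact permutation p was 0.000777, with Benjamini-Hochberg adjusted values of 0.00855 over the 11 ratios and 0.00819 over the 1770. It passed in all 13 tests that left out 1 mouse, with differences of 1.41 to 1.78.

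miR-155-5p over miR-21-5p was 0.00604, 0.00927, 0.00612, 0.0200 and 0.00899 in the sham mice and 0.0157 to 0.0236 in CLP mice. All CLP mice lay above 4 of the 5 sham mice, and sham 4 lay inside the CLP range. The ratio was 2.03-fold higher in CLP (exact permutation p = 0.00466, adjusted 0.0171 over the 11 ratios and 0.0217 over the 1770). miR-21-5p over miR-125a-5p ran the opposite way, at 104.4, 152, 63.8, 108 and 90.9 in sham 1 to 5 against 20.2 to 65.9 in CLP, where only CLP 8 exceeded sham 3. It was 2.62-fold lower in CLP (exact permutation p = 0.00155, adjusted 0.00855 over the 11 ratios and 0.0114 over the 1770). Without sham 1 and sham 4 it did not pass (-1.33, exact permutation test adjusted p = 0.0667). miR-21-5p over miR-132-3p was 2.11-fold lower in CLP but did not pass after adjustment (exact permutation p = 0.0280, adjusted 0.0769 over the 11 ratios).

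miR-146a-5p over miR-155-5p did not pass. It was 16.1, 15.2, 43.7, 8.71 and 27.6 in sham 1 to 5 and ran from 19.7 in CLP 5 through a median of 25.8 to 62.1 in CLP 4. The log2 difference was 0.60, smaller than the SD of the sham mice (0.89), with an exact permutation p of 0.172 (adjusted 0.316 over the 11 ratios). CLP 4 and CLP 7, the mice low in scaled miR-155-5p, held the highest CLP ratios, 62.1 and 42.6. The other 5 ratios also did not pass, with exact permutation p from 0.0668 for miR-146a-5p over miR-132-3p to 0.921 for miR-155-5p over miR-132-3p.

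let-7e-5p comes from the same stretch of chromosome 17 as miR-125a-5p. Their ratio ranged over the mice from 0.0626 to 0.448. The sham mice held both ends of that range, with sham 3 and sham 5 at 0.448 and 0.393 and sham 2 and sham 4 at 0.0626 and 0.0662. In sham 2 and sham 4 miR-125a-5p had only 4.71 and 2.50 raw units, so these ratios rest on dim signal. The slope of the log2 ratio on the log2 level of the mouse (its geometric mean signal), with group as a factor, was 0.74 (SE 0.35). The CLP mice ran from 0.0693 in CLP 6 to 0.384 in CLP 4. The groups differed by 0.09 on the log2 scale (exact permutation p = 0.877), far less than the sham SD of 1.36.

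**Figure D4:**
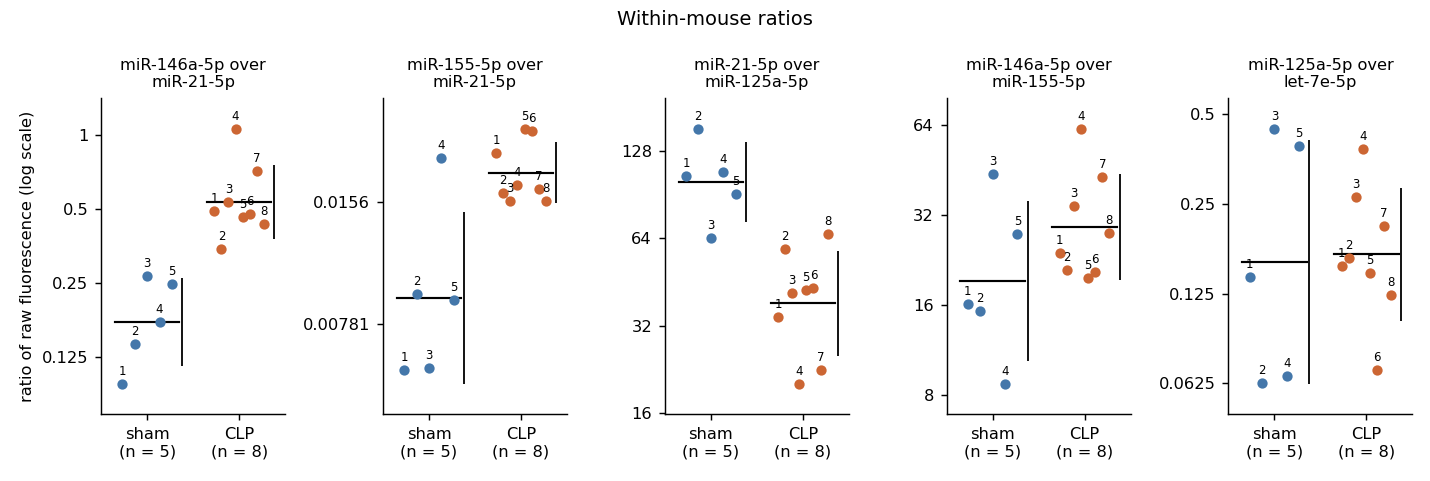
Within-mouse ratios of raw fluorescence (log scale) in each numbered mouse; horizontal lines are means and vertical bars 1 SD, both of log2 ratio. The ratio of miR-146a-5p to miR-21-5p separates the groups, from 0.0973 to 0.267 in sham and from 0.344 to 1.07 in CLP, while the other 4 ratios overlap.

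Signal level and group moved together, so the members were also read against the level of the mouse, its geometric mean signal. The common slope of log2 signal on log2 level within the groups was 1.52 (SE 0.21) for miR-132-3p, 1.33 (SE 0.16) for miR-146a-5p and 1.195 (SE 0.16) for miR-125a-5p. The slopes were 0.99 (SE 0.16) for miR-21-5p and 0.92 (SE 0.20) for miR-155-5p, against a median of 0.97 over 66 miRNAs. The erythroid miR-451a had 0.29. A slope above 1 means that a miRNA takes a larger share of the panel in brighter mice of the same group. With level as a covariate, no member passed by limma, and the differences at equal level were 0.23 (SE 0.37) for miR-146a-5p, 0.26 (SE 0.37) for miR-125a-5p, 0.43 (SE 0.44) for miR-155-5p, -0.68 (SE 0.47) for miR-132-3p and -0.73 (SE 0.37) for miR-21-5p. In that fit 4 of the 66 miRNAs were higher and 4 lower.

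For the ratio of miR-146a-5p to miR-21-5p the difference at equal level was 0.96 (SE 0.47), against 1.62 without the covariate. For miR-155-5p over miR-21-5p it was 1.16 (SE 0.47), against 1.02, and for miR-21-5p over miR-125a-5p it was -0.99 (SE 0.53), against -1.39. miR-146a-5p over miR-155-5p turned sign, from 0.60 to -0.20 (SE 0.65), and miR-21-5p over miR-132-3p went from -1.08 to -0.05 (SE 0.60). The other 6 ratios ran at equal level from -1.36 (SE 0.85) for miR-125a-5p over let-7e-5p to 1.11 (SE 0.87) for miR-155-5p over miR-132-3p. Among them miR-132-3p over miR-125a-5p was -0.94 (SE 0.34) and miR-146a-5p over miR-132-3p was 0.91 (SE 0.45). The only CLP mouse with a level inside the sham range was CLP 8, at 153 units between sham 3 at 126 and sham 5 at 241. Its ratio of miR-146a-5p to miR-21-5p was 0.437, above the 0.267 and 0.248 of those sham mice. With 1 such mouse, group and level cannot be told apart further.

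**Figure D5:**
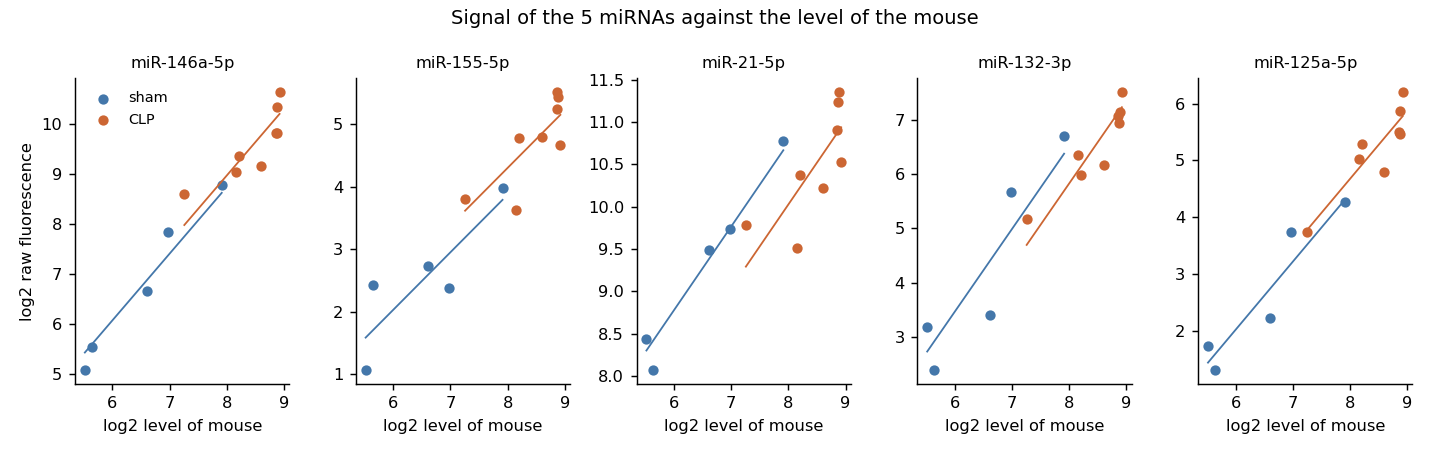
Log2 raw fluorescence of each member against the log2 geometric mean signal of the mouse, with 1 common slope fitted to both groups. The fitted CLP line lies below the sham line for miR-21-5p and miR-132-3p and above it for the other members.

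Markers of blood cells were set beside the members because red cells, platelets and leukocytes all shed miRNA into plasma. Of the 4 erythroid markers on the panel, 3 fell relative to the panel (miR-451a, miR-486-5p and miR-16-5p), where 20% of all miRNAs tested did. Unscaled, these 3 changed by 0.44, 1.17 and 0.70 and miR-92a-3p by 1.65, and 2 of the 4 passed as higher. None of the 4 markers was at 0 in any mouse. Their summed scaled signal, miR-92a-3p included, ran from 16590.2 to 37766 units in sham and from 8894 to 19324 in CLP. The ratio of miR-146a-5p to miR-451a was 5.19-fold higher in CLP and that of miR-155-5p to miR-451a 3.42-fold, and neither overlapped between the groups (exact permutation p = 0.000777 each, adjusted 0.00389 over the 10 ratios to markers). Of the 1770 ratios on the panel, 10.8% did not overlap and 41.5% had an exact permutation p under 0.05. After adjustment over the 1770, 30.5% passed. These shares cover all pairs, not only those with miR-451a, whose relative change was among the lowest on the panel. Relative to the panel miR-451a changed by -1.50 log2 units and miR-155-5p by 0.27 (limma adjusted p = 0.454). Unscaled, miR-451a changed by 0.44 and miR-155-5p by 2.21. How the log2 difference of their ratio, 1.78, divides between the 2 miRNAs thus depends on the scaling and cannot be told from the ratio. miR-125a-5p over miR-451a was 4.41-fold and miR-132-3p over miR-451a 3.56-fold higher (exact permutation p = 0.00233 and 0.0171), and miR-21-5p over miR-451a 1.69-fold, which did not pass (exact permutation p = 0.0614). The part of red cell RNA in these differences was not tested.

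Against miR-223-3p, a myeloid miRNA that neither rose nor fell by the test relative to the panel (-0.11, limma adjusted p = 0.699), the members split. miR-146a-5p over miR-223-3p was 1.97-fold higher in CLP (exact permutation p = 0.00389, adjusted 0.00971 over the 10 ratios to markers), and miR-125a-5p over miR-223-3p 1.67-fold higher (exact permutation p = 0.0225, adjusted 0.0322). miR-21-5p over miR-223-3p lay tightly between 0.639 and 0.797 in sham mice and between 0.267 and 0.696 in CLP mice, and was 1.56-fold lower (exact permutation p = 0.00777, adjusted 0.0155). The ratios of miR-155-5p and miR-132-3p to miR-223-3p did not pass (exact permutation p = 0.310 and 0.251). Over all 1770 ratios on the panel, 41.5% had an exact permutation p under 0.05. Of the other marker lists, both myeloid miRNAs and all 3 lymphoid miRNAs missed the threshold relative to the panel, as did the hepatocyte miR-122-5p. The endothelial and platelet miR-126-3p rose and the platelet miR-24-3p fell.

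Among the 8 CLP mice the members formed no firm blocks. The closest pair was miR-155-5p and miR-21-5p (scaled log2 signal, Pearson r = 0.84, exact permutation p = 0.00766, adjusted 0.0766 over 10 pairs; Spearman rho = 0.60, exact permutation p = 0.132, adjusted 0.661). Without the 2 mice farthest from the median of miR-155-5p its r was 0.56. miR-146a-5p and miR-125a-5p came next (r = 0.74, exact permutation p = 0.0346, adjusted 0.173; rho = 0.64, exact permutation p = 0.0962, adjusted 0.661). Their r was 0.19 without the 2 mice farthest from the median of miR-146a-5p. Dropping the extreme mice narrows the range and can by itself lower r, so these drops cannot show what a relation rests on. miR-146a-5p and miR-155-5p had r = -0.08 (exact permutation p = 0.853, adjusted 0.853; rho = 0.05, exact permutation p = 0.935, adjusted 0.935). No pair passed after adjustment.

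Over the same 8 mice, the miRNAs most like each member in scaled signal were taken as a description with no test. miR-146a-5p was most like miR-92a-3p (r = 0.88) and miR-342-3p (0.84), and miR-155-5p most like miR-20b-5p (0.90) and miR-17-5p (0.88). miR-21-5p was most like miR-155-5p (0.84) and miR-17-5p (0.82). miR-132-3p was most like miR-140-3p (0.86) and miR-192-5p (0.76), and miR-125a-5p most like miR-885-5p (0.95) and miR-429 (0.90). These values share the scaling factor of each mouse, and the highest of many correlations is high by selection.

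Other miRNAs linked to Toll-like receptor and NF-kB signalling were taken from a list of 25, of which 15 are on the panel and were tested. Without scaling, 14 of the 15 rose, against 90.9% of all miRNAs. Relative to the panel 2 rose (10.8% of all miRNAs did), 3 fell (20% did) and 10 did not pass, with a median change of 0.21 against 0.10 over all. miR-10a-5p, which represses NF-kB activators in endothelium, rose by 1.98 (SE 0.22, limma adjusted p = 1.26e-05). miR-126-3p, which represses the adhesion molecule VCAM1, rose by 0.80 (SE 0.23, limma adjusted p = 0.0192). Those that fell were miR-16-5p (-1.24), miR-17-5p (-0.79) and miR-20a-5p (-0.51). miR-126-3p and miR-16-5p also stand in the marker lists above, so their values here are not separate observations. The values of the rest ran from -0.41 for miR-181b-5p to 0.55 for let-7e-5p, a miRNA reported to target TLR4, with 0.45 for miR-142-3p of blood cells and 0.45 for miR-34a-5p.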

How the data were processed

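Plasma exosomal RNA of 13 mice was measured with FirePlex particles (hybridization, adapter ligation, RT-PCR with a biotinylated primer, per the labels' protocols). The deposited first table, called raw by the authors, holds linear fluorescence intensity, and no scaling between samples is recorded for it. The deposited second table is that intensity times 1 factor per sample (0.450 to 4.31), and the sources used here do not state its choice, the scanner or any background subtraction. Of 884 cells 7 were 0 and 1 empty, none of them a member's.

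Each sample was taken as 1 mouse, so a p-value reflects the spread among samples, which may be technical in part. Scaled and unscaled values were floored at the 5th percentile of positive values (3.09 and 2.10 units), log2 was taken, and miRNAs that exceeded their floor in 5 or more samples (65 and 66) were tested with limma 3.58.1 in R 4.3.3, with no covariate, after tests on simulated data. Every adjusted p of a single miRNA is limma's, except where the exact permutation test is named. Ratios used raw values. The other steps used Python 3.11.15 with scipy 1.17.1, numpy 2.4.6, matplotlib 3.10.9 and pandas 2.3.3.

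Named were the 5 members, the 2 miRNAs most like each among CLP mice, blood-cell markers, transcript partners and the list of pathway miRNAs; miR-142-3p, miR-34a-5p, let-7e-5p and miR-181b-5p stand for that list. Mouse mature sequences, from RefSeq (GRCm38.p6), matched 55 of 68 probes. The members, lists, tests and most alternatives were chosen with earlier results of these data known. The level as a covariate of a ratio and adjustment over 1770 ratios were added after seeing the data. Same-numbered sham and CLP samples share only a number: their deviations from the group means correlated at -0.34 to 0.30 over 64 miRNAs.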

Additional observations from a re-analysis of the deposited data

How the results depend on the processing

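With quantile normalization 5 miRNAs were higher and 7 lower relative to the panel (main: 7 and 13). The counts were 4 and 6 with median scaling, 13 and 6 with the 75th percentile, and 13 and 6 with the authors' second table. Without sham 1 and sham 4, 4 were higher. miR-146a-5p did not pass with quantile normalization (0.82) or without sham 1 and sham 4 (0.53). miR-125a-5p did not pass at 0.31 with quantile normalization, 0.69 with median scaling, 0.64 with the exact permutation test (adjusted p = 0.0643) and 0.52 without the 2 sham mice. miR-21-5p did not pass at -0.54 with quantile normalization, -0.53 with the 75th percentile and -0.54 with the authors' table. The cause was not tested.

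The replicate block, where numbers do not pair mice, gave 2 higher and 4 lower, with miR-146a-5p at 0.99, miR-21-5p at -0.64 and miR-125a-5p at 0.79, none passing. Unscaled, the block gave 62 higher (main: 60) and ended no member's call. For ratios it gave 1.63 for miR-146a-5p over miR-21-5p (exact sign-flip p = 0.0625, the smallest that 5 pairs allow) and 0.60 for miR-146a-5p over miR-155-5p.

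Unscaled, level as a covariate gave 4 higher and 4 lower, with miR-146a-5p at 0.23, miR-155-5p at 0.43, miR-125a-5p at 0.26, and both miR-21-5p (-0.73) and miR-132-3p (-0.68) turned negative. Without sham 1 and sham 4, 36 of 66 rose (60 before), and miR-21-5p (0.49) and miR-132-3p (1.28) missed the threshold. The level-adjusted ratio of miR-146a-5p to miR-21-5p was 0.96.

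Leaving out 1 mouse gave 3 to 9 miRNAs higher and 8 to 16 lower after scaling, and 56 to 63 higher unscaled. Relative changes then ran from 0.70 to 1.03 (miR-146a-5p), 0.13 to 0.47 (miR-155-5p), -0.83 to -0.66 (miR-21-5p), 0.08 to 0.59 (miR-132-3p) and 0.51 to 0.79 (miR-125a-5p), and unscaled ones from 2.39 to 3.31, 1.85 to 2.58, 0.88 to 1.56, 1.80 to 2.87 and 2.24 to 2.98 in the same order. Ratios ran from 1.41 to 1.78 (miR-146a-5p over miR-21-5p) and 0.32 to 0.90 (over miR-155-5p). miR-21-5p over miR-125a-5p missed the threshold without sham 1 and sham 4 (-1.33, adjusted p = 0.0667). Signal near the floor limits miR-155-5p and miR-125a-5p in sham mice.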
